A study of Hydra vulgaris with 36 samples.

Results

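Of the 12410 genes in the deposited count table, 15 made up the set described here. They passed a floor on abundance. At the end of the incubation they were at least 2-fold lower in DAPT-treated Hydra, without overlap between the libraries of the treatments. Their difference from the control was less than 50% as large 6 h after the inhibitor was removed. They were chosen by their measured values, on a scale called L here: log2(CPM + 0.5) of a gene in a library, where CPM is its share of the library's counts scaled to a fixed total, minus the median of that quantity over all genes of the library. A gene belonged to the set when its mean over the 36 libraries was at least 2 CPM, when its mean L at 0 h was lower in DAPT than in DMSO by 1 or more, and when all 6 DAPT libraries of 0 h lay below all 6 DMSO libraries. At 6 h its difference also had to lie above 50% of that at 0 h and above -1, with no upper limit, so that a narrowing could come from either treatment. Of the 10405 genes that reached 2 CPM, 215 met the criteria of 0 h, and 200 of these did not meet those of 6 h. Because the libraries of 0 h and 6 h chose the genes, the differences at these times are given as a description without a test. The libraries of 3 h took no part in the choice beyond the mean abundance, and the tests below use them.

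Notch is a receptor at the cell surface that is cut when it binds a ligand on a neighbouring cell. The last cut is made inside the membrane by gamma-secretase, and the freed inner part of the receptor enters the nucleus, where it joins a DNA-binding partner and turns on target genes. DAPT blocks gamma-secretase, so that genes switched on by Notch are not activated while it is present. In Hydra, a small freshwater polyp whose nerve cells, stinging cells and gland cells arise from interstitial stem cells, DAPT is known to disturb the maturation of stinging cells and the boundary at the base of the bud.

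The animals were whole polyps of Hydra vulgaris, Basel strain, which had gone 24 h without food. For 48 h the DMSO groups were held in the 1% DMSO solvent and the DAPT groups in the same solvent with DAPT at 20 µM, and both solutions were exchanged at 12 h intervals, so every animal was exposed to the solvent. Both treatments were sampled at the end of this period (0 h) and again 3 h and 6 h later, with DAPT by then exchanged for 1% DMSO. The aim stated for the series was to find genes that Notch controls at the level of transcription. About 25 animals were pooled per sample, and each of the 6 groups held 6 biological replicates per the labels. In such bulk samples, fewer cells of a type and less RNA per cell cannot be told apart. The columns of the table carry the letters S and P. The P columns were taken for DAPT and the S columns for DMSO, since each letter occurs in only one of these names. With the opposite reading, the set would hold genes that were higher in DAPT and came down.

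Total counts per library ran from 5692414 to 15310480. DMSO 6 h replicate 4 stood apart from the other libraries of its group with a TMM scaling factor of 0.6259, and the main counts and medians of the set at 6 h are given with and without it. At 3 h, both libraries numbered 2 had the largest shares of counts in their 20 most abundant genes, 39.03% in DMSO and 32.21% in DAPT. The genes carry identifiers of a Trinity transcript assembly. Of these, 0 matched the names, accessions or synonyms of the RefSeq gene table of Hydra vulgaris, so no member has a gene name here, and neither the tissue nor cell types could be checked against marker genes. The 15 genes are therefore numbered from 1 to 15 by their difference at 3 h, from the most negative to the smallest in size, and 4 of them are given by identifier. All 15 came from separate assembly clusters: 0 of them shared a cluster with another gene of the table, as 548 genes did.

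The set was small and of moderate depth. The mean over 36 libraries had a median of 9.38 CPM in the 15 genes and 9.40 CPM in all genes of at least 2 CPM, and the expected counts of a member in a single library ran from 1.42 to 5736. At 0 h the 15 differences ran from -1.82 to -1.01 with a median of -1.26, whereas the 200 genes that met the same criteria of 0 h and not those of 6 h had a median of -1.69 and reached -5.15. At 6 h the 15 differences ran from -0.89 to 0.16 with a median of -0.40, and in 0 of the 15 genes did all 6 DAPT libraries still lie below all 6 DMSO libraries. The rule kept only genes with a reduced difference at 6 h, which makes separate groups at that time less likely. The share of all genes with separate groups at 6 h was not computed. In 14 of the 15, all but gene 15 (0.16), the DAPT mean was still the lower one. Without DMSO 6 h replicate 4 it was the lower one in all 15, gene 15 having -0.18, the median was -0.45, the range was from -1.04 to -0.02, and again 0 of the 15 had separate groups. With library totals in place of L it was lower in 12, on a scale where the median difference of all genes of at least 2 CPM was 0.13, and 14 of the 15 lay below that median.

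The borders of the rule cut through a continuum. Gene 15 was the member nearest the limit of 0 h, with a difference of -1.01, and the nearest gene outside had -0.98 and would otherwise have belonged. Gene 12 kept 49.5% of its 0 h difference at 6 h, and the nearest gene outside kept 50.2%. The member of lowest abundance, gene 8, had a mean of 2.73 CPM, and the nearest gene below the floor had 1.73 CPM. A further 38 genes missed only the size of the difference at 0 h, 36 missed only the separation of the libraries at 0 h and 3 missed only the floor on abundance. Of the 200 genes that missed only the criteria of 6 h, 26 had a 6 h difference above -1.

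**Figure D1:**
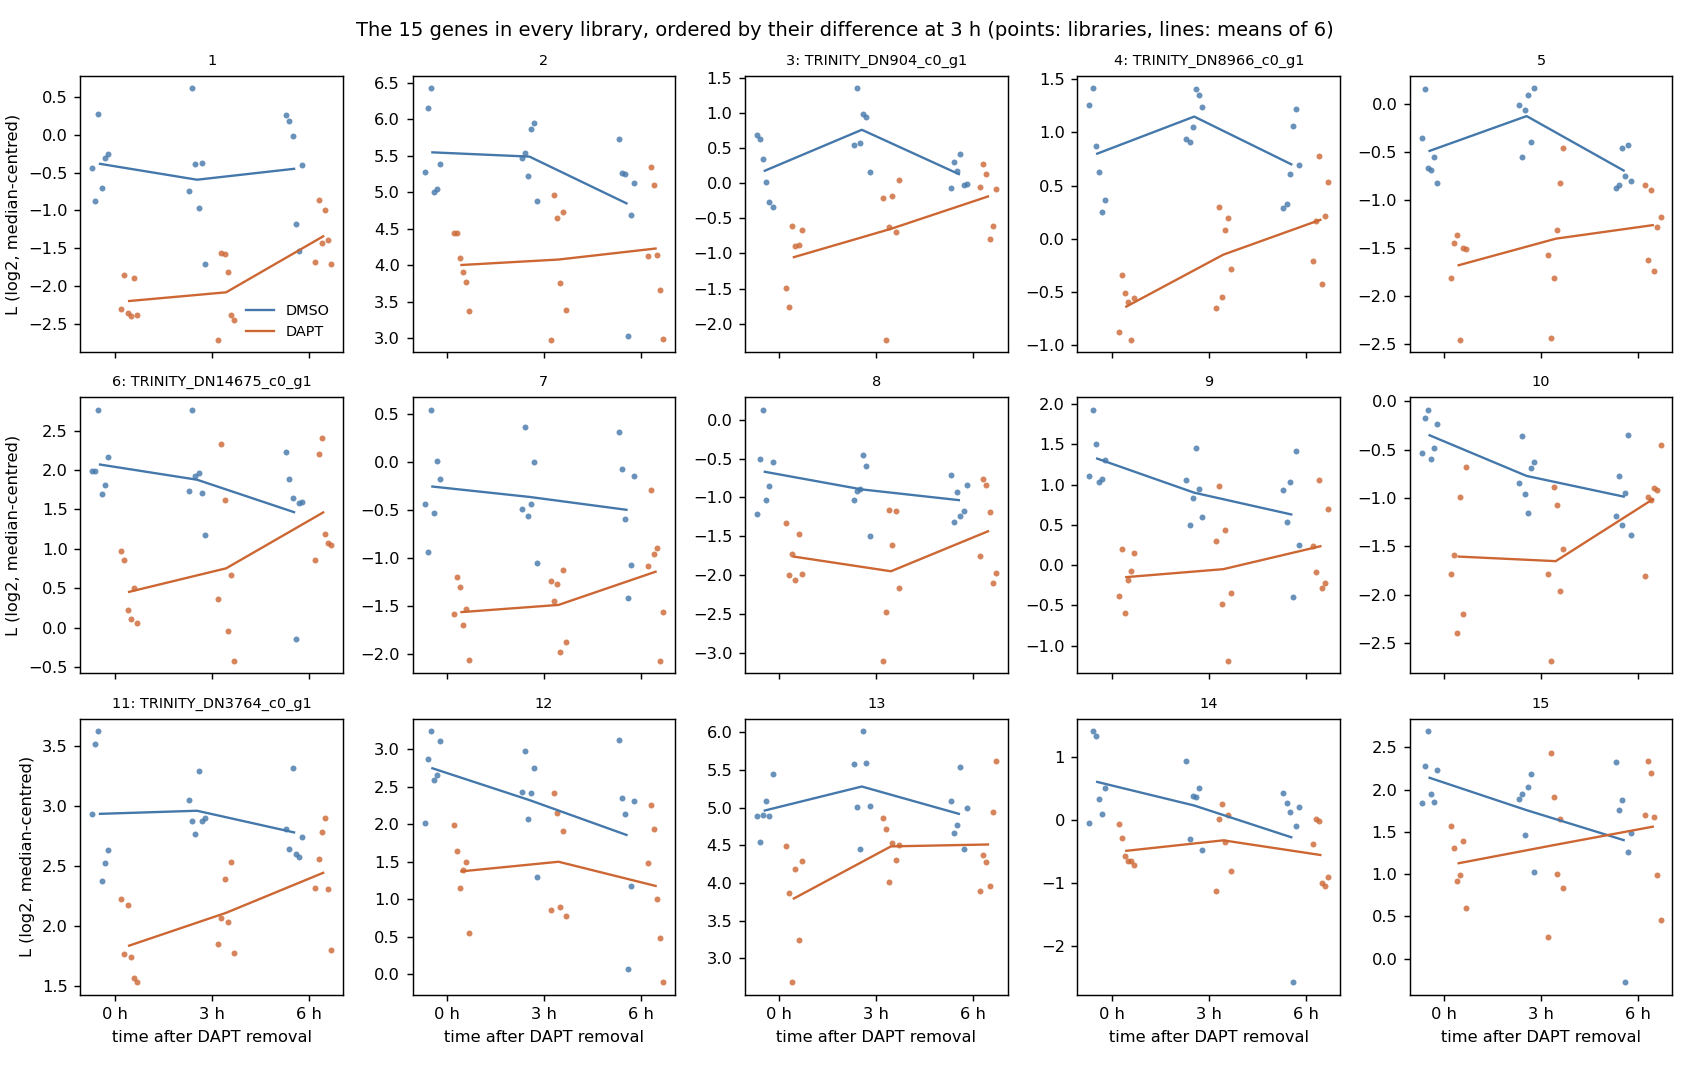
Each panel shows L (log2, median-centred) of 1 gene in all 36 libraries by time after the inhibitor was removed, with blue points for DMSO, orange points for DAPT and lines through the means of 6 libraries. The treatments lie apart at 0 h in all 15 panels, as the rule demanded, and at 3 h in genes 3, 4, 7 and 11. They overlap at 6 h in all 15, where the rule asked for a reduced difference.

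At 3 h the genes were still lower in the animals that had been in DAPT. The mean L was lower in DAPT than in DMSO in all 15 genes, where 39.3% of all genes of at least 2 CPM had a lower DAPT mean. The median difference of the 15 was -1.05 on the log2 scale, with a range from -1.49 to -0.41, beside a median of 0.07 over all genes of at least 2 CPM. In 8 of the 15 the DAPT mean was lower by at least 1, as it was in 3.29% of all such genes.

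Tested gene by gene in the 12 libraries of 3 h alone, 8 of the 15 genes were called lower in DAPT by edgeR's quasi-likelihood test (Benjamini-Hochberg adjusted p under 0.05 over 11179 genes). Over all genes, 513 were called lower, which is 4.59% of those tested, and 153 were called higher. The 8 genes were numbers 1 to 5, 7, 11 and 13, with log2 fold changes from -2.08 to -0.89 and adjusted p from 0.000215 to 0.0274. A further 6 genes, numbers 6, 8, 9, 10, 12 and 14, had log2 fold changes from -1.18 to -0.66 and adjusted p from 0.0944 to 0.336 and did not pass. Without adjustment, 14 of the 15 had p under 0.05, where 9.15% of all tested genes did and were lower. Gene 15 had the smallest difference, with a log2 fold change of -0.35 and an SE of 0.32 by edgeR (adjusted p = 0.712).

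The 8 calls were not equally firm. Genes 1, 3, 4, 7 and 11 were called in all 12 fits that left out a single library. Gene 2 was lost without DMSO 3 h replicate 4 or 5 (edgeR adjusted p = 0.0536 and 0.0538), gene 5 without DMSO 3 h replicate 4 or DAPT 3 h replicate 1 (0.0502 and 0.05), and gene 13 without DMSO replicate 1, 4 or 5 or DAPT replicate 3, 4, 5 or 6 (0.0503 to 0.0763). The count of 8 was thus 5 without DMSO 3 h replicate 4, and 9 with both libraries numbered 2 left out.

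**Figure D2:**
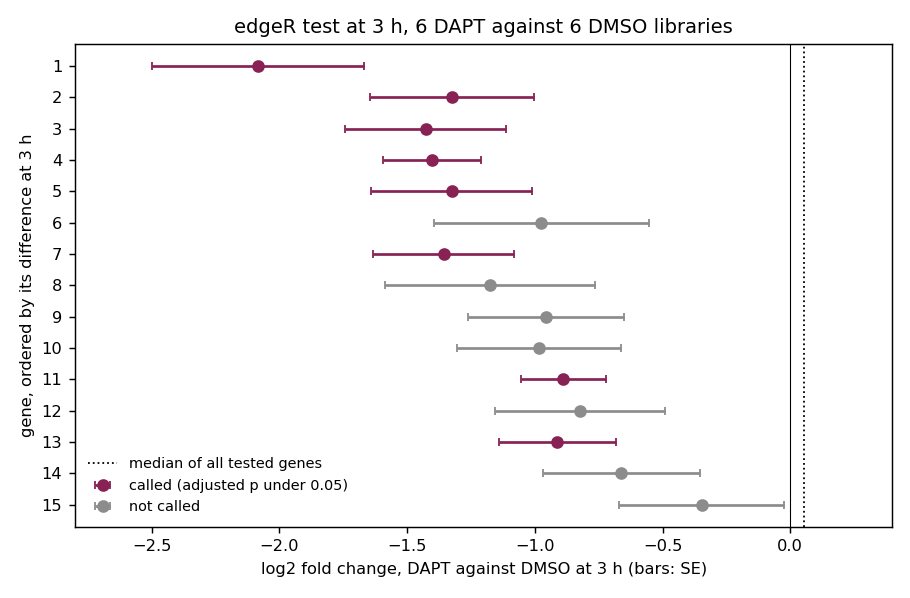
The points give the log2 fold change of DAPT against DMSO at 3 h for the 15 genes from edgeR's test on 6 against 6 libraries, the bars its SE, and the dotted line the median of all tested genes, 0.05. All 15 points lie below 0, and the 8 called genes are in purple.

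TRINITY_DN8966_c0_g1, gene 4, had the smallest p at 3 h. At 0 h its 6 DMSO libraries had a lowest, median and highest value of 8.11, 11.9 and 19.2 CPM (scaled by TMM, as are all CPM of single genes here), and its DAPT libraries 3.44, 4.25 and 5.05 CPM. At 3 h the DMSO libraries had 12.8, 15.4 and 18.4 CPM and the DAPT libraries 3.87, 5.94 and 7.52 CPM. The groups did not overlap at 3 h: every DAPT library was below every DMSO library. DAPT was 2.64-fold lower by edgeR (log2 fold change -1.40 with an SE of 0.19, adjusted p = 0.000215), and this was called in all 21 other settings tried. At 6 h the DMSO libraries had 8.22, 10.5 and 15.6 CPM and the DAPT libraries 4.72, 7.23 and 11.2 CPM, so that 4 DAPT libraries lay below all DMSO libraries and 2 did not. The means in DAPT at 0 h, 3 h and 6 h were 4.16 ± 0.613, 5.86 ± 1.58 and 7.51 ± 2.33 CPM (SD, n = 6).

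TRINITY_DN3764_c0_g1, gene 11, had the next smallest p at 3 h and counts of at least 135 in every library. At 0 h the DMSO libraries had a lowest, median and highest value of 38.0, 49.8 and 89.7 CPM and the DAPT libraries 19.5, 23.2 and 33.3 CPM. At 3 h the values were 48.0, 52.8 and 69.3 CPM in DMSO and 23.1, 27.4 and 39.7 CPM in DAPT. The groups stayed apart, with DAPT 1.85-fold lower by edgeR (log2 fold change -0.89 with an SE of 0.17, adjusted p = 0.00328), which was called in all 21 other settings as well. At 6 h the DMSO libraries had 40.6, 44.6 and 68.7 CPM and the DAPT libraries 22.3, 37.6 and 51.4 CPM, and the groups overlapped. The DMSO means at the 3 times were 58.7 ± 22.6, 55.6 ± 7.53 and 48.6 ± 10.5 CPM (SD, n = 6), and those of DAPT were 25.3 ± 5.66, 29.8 ± 6.88 and 37.9 ± 10.6 CPM.

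TRINITY_DN14675_c0_g1, gene 6, had the largest upward change of mean L in DAPT animals from 0 h to 6 h, 1.01 on the log2 scale, and met DMSO at 6 h with a difference of 0.00. At 0 h the DMSO libraries had a lowest, median and highest value of 23.6, 28.4 and 49.2 CPM and the DAPT libraries 6.73, 8.88 and 13.7 CPM. At 3 h DMSO had 15.8, 24.8 and 48.1 CPM and DAPT 4.62, 9.39 and 32.8 CPM. The DAPT libraries were spread widely at this time: 4 of them lay below all DMSO libraries, while replicates 2 and 3 had 32.8 and 21.5 CPM. The difference at 3 h was not called by edgeR (log2 fold change -0.97 with an SE of 0.42, adjusted p = 0.280). It was called without DAPT 3 h replicate 2 (log2 fold change -1.43, adjusted p = 0.0340) and with the replicate number as a block (-1.19, adjusted p = 0.0178). At 6 h DMSO had 5.59, 21.0 and 34.2 CPM and DAPT 12.2, 14.3 and 35.8 CPM. The lowest of these values was DMSO replicate 4, without which the 6 h difference of L was -0.33.

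TRINITY_DN904_c0_g1, gene 3, had the next largest upward change in DAPT, 0.86 on the log2 scale of L. At 0 h the DMSO libraries had a lowest, median and highest value of 5.37, 7.89 and 10.96 CPM and the DAPT libraries 1.58, 3.49 and 4.12 CPM. At 3 h DMSO had 7.53, 11.7 and 17.6 CPM and DAPT 0.736, 4.79 and 6.58 CPM. The groups did not overlap, and DAPT was 2.69-fold lower by edgeR (log2 fold change -1.43 with an SE of 0.32, adjusted p = 0.0114), with an adjusted p of 0.0609 when the replicate number was a block. Its difference of L was larger in size at 3 h (-1.41) than at 0 h (-1.23), with a DMSO mean L at 3 h that was 0.58 above that of 0 h. At 6 h DMSO had 6.22, 6.90 and 8.63 CPM and DAPT 3.52, 5.99 and 7.95 CPM.

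Across the whole set, the groups did not overlap at 3 h in 4 of the 15 genes, numbers 3, 4, 7 and 11, which is 26.7% of them. Among all genes of at least 2 CPM, 3.09% had all 6 DAPT libraries below all 6 DMSO libraries, and among the 200 genes that had not returned by 6 h it was 77.0%. With both 3 h libraries numbered 2 left out, 7 of the 15 did not overlap. Separate groups are easier to meet with 5 libraries each, and the share of all genes was not computed for that setting. In genes 2, 5 and 9, 5 of the 6 DAPT libraries were below every DMSO library, and in gene 13, whose difference was called, only 2 were.

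The difference left at 6 h was smaller than that at 3 h, and the rule itself required the 6 h value to be under 50% of that at 0 h. As medians over the 15 genes, 77.4% of the 0 h difference was present at 3 h and 34.8% at 6 h, or 40.5% at 6 h without DMSO 6 h replicate 4. In 1 gene, number 15, the difference at 3 h was smaller than 50% of that at 0 h, with 40.5%, and gene 14 followed with 50.5%. In 12 genes, 11 without that library, the value at 3 h was nearer to that of 0 h than to that of 6 h. Genes 3 and 5 had a larger difference at 3 h than at 0 h. The step of the difference from 0 h to 3 h had a median of 0.33 on the log2 scale, and the step from 3 h to 6 h one of 0.60, or 0.48 without that library. Since the rule picked low values at 0 h and high values at 6 h, and both steps share a time with it, neither was tested.

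The genes that did not return gave a reference for 3 h. Their median differences were -1.69 at 0 h, -1.63 at 3 h and -1.64 at 6 h, the last being -1.76 without DMSO 6 h replicate 4. The difference at 3 h kept a median of 92.9% of that at 0 h, and in 0 of the 200 was it smaller than 50%. Of the 199 that passed the filter on low counts, 182 (91.5%) were called lower at 3 h, against 8 of 15 (53.3%) of the returning genes. The returning genes had smaller differences at 0 h and varied more between libraries. The median SD of L among the 6 libraries of 3 h was 0.42 in DMSO and 0.70 in DAPT for the 15 genes, 0.36 and 0.48 for the 200, and 0.26 and 0.41 for all genes of at least 2 CPM. Whether the sets differ beyond this was not tested.

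**Figure D3:**
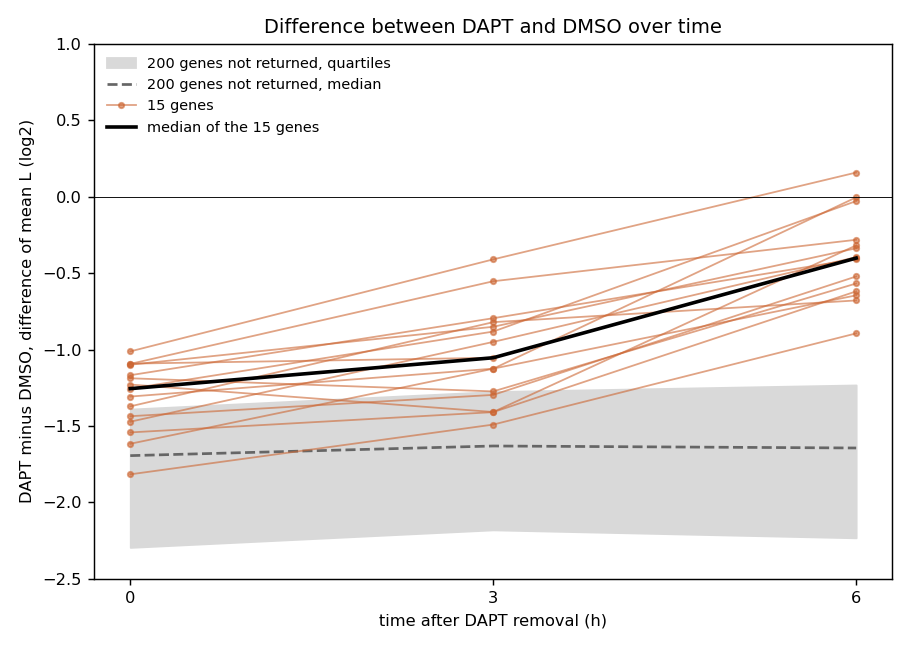
The vertical axis gives the difference of mean L between DAPT and DMSO (log2) and the horizontal axis the time after DAPT removal (h), with an orange line per gene, the median of the 15 in black, and the median and quartiles of the 200 genes not returned in grey. The median of the 15 goes from -1.26 to -1.05 and -0.40, and that of the 200 from -1.69 to -1.63 and -1.64; values at 0 h and 6 h chose both sets.

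The difference between treatments can shrink through a higher level in DAPT animals or a lower one in DMSO animals, and the values moved on both sides. Mean L in DAPT had a median change from 0 h to 6 h of 0.43 on the log2 scale, and was higher at 6 h in 13 of the 15 genes. Over the same time mean L in DMSO had a median change of -0.36 and was lower at 6 h in all 15 genes. Without DMSO 6 h replicate 4 the median change in DMSO was -0.28, and 14 of the 15 were lower, gene 1 having 0.08. The medians over all genes of at least 2 CPM were 0.05 in DAPT and 0.07 in DMSO. In the 200 genes not returned, the medians were 0.13 in DAPT and 0.00 in DMSO, and 100 of them were lower in DMSO at 6 h (0.10 and 71 without that library). The rule itself favoured low DAPT and high DMSO values at 0 h. It also favoured high DAPT and low DMSO values at 6 h, so neither change was tested.

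The genes differed in which side moved. In genes 1, 3, 4, 11 and 13 the change in DAPT made up 79.7% to 94.7% of the narrowing, and DMSO changed by -0.15 to -0.04. In genes 5, 6 and 7 the share of DAPT was 62.5% to 67.1%. In the remaining 7 genes most of the narrowing lay in DMSO. Without DMSO 6 h replicate 4 this held for 5, genes 2, 9, 10, 12 and 14. Gene 15 then changed by 0.43 in DAPT and -0.40 in DMSO, and gene 8 by 0.33 and -0.32, so that DAPT made up 51.9% and 50.2%. Genes 12 and 14 stood at the end of this range: their level in DAPT was lower at 6 h than at 0 h, by 0.19 and 0.07, while DMSO changed by -0.89 and -0.88, or by -0.53 and -0.42 without that library. DMSO at 3 h was already below DMSO at 0 h in 10 of the 15 genes, by up to 0.42, with a median change of -0.19, and this value shares the 0 h libraries with the rule.

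Scaling by library totals shifted all genes. With library totals the median change from 0 h to 6 h was 0.19 in DAPT and -0.61 in DMSO, where the median of all genes of at least 2 CPM also moved, by -0.20 and -0.17. DAPT made up more than 50% of the narrowing in 8 genes on the L scale, in 7 with TMM-scaled values and in 4 with library totals. Relative to the median change of all genes it was 8 on all 3 scales. From 0 h to 3 h, mean L in DAPT was higher in 13 of the 15 genes, with a median change of 0.17. With library totals it was lower in 12 of them, with a median of -0.15 where that of all genes was -0.28, while relative to all genes 13 of the 15 lay higher by library totals as well, with a median of 0.13. From 3 h to 6 h, 13 of 15 were higher in DAPT and 14 of 15 lower in DMSO on all 3 scales. Without DMSO 6 h replicate 4, 13 of 15 were lower in DMSO on the L scale. Of the 10405 genes of at least 2 CPM, 5278 were higher in DAPT and 4502 lower in DMSO on the L scale. The 3 scales share the same libraries, and the rule favoured high DAPT and low DMSO values at 6 h. These counts were therefore not tested.

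**Figure D4:**
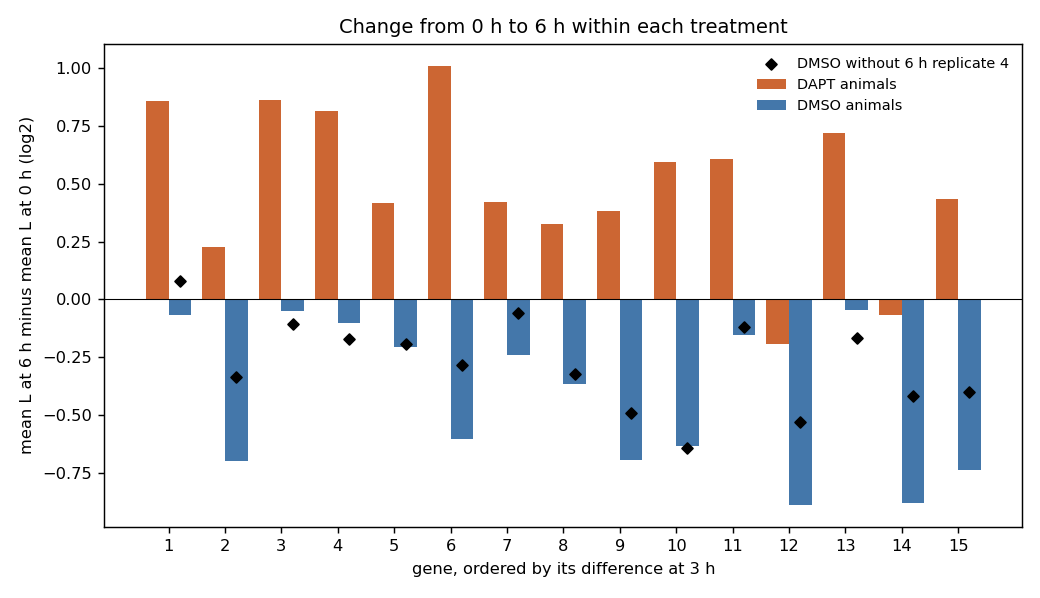
Bars give mean L at 6 h minus mean L at 0 h (log2) in DAPT (orange) and DMSO (blue) animals for the 15 genes, and diamonds the DMSO value without DMSO 6 h replicate 4. The DAPT bar is above 0 in all but genes 12 and 14, and the DMSO bar is below 0 in all 15, as it is with TMM and library-total scaling, while the diamond of gene 1 lies at 0.08.

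A single library carried part of the return. DMSO 6 h replicate 4 had a mean L over the 15 genes of 0.25, against 0.91 to 1.38 in the other 5 libraries of its group. In gene 2 its L was 3.03 where the others had 4.69 to 5.72, and in gene 15 it was -0.28 where the others had 1.26 to 2.32. Without this library, and with the 0 h values as they were, 10 of the 15 genes still met the criteria of 6 h. Genes 1, 2, 7, 12 and 14 did not, with 6 h differences of -1.04, -0.98, -0.83, -1.04 and -0.74. The 10 that did include the 4 genes given by identifier. The rule applied without the library found 11 genes, the 10 and another one, of which 6 were called lower at 3 h, with a median difference at 3 h of -1.05.

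Taken per library, the mean L over the 15 genes gave separate ranges for the treatments at 3 h, which the rule did not use. The ranges overlapped at 6 h, a time that the rule did use. At 3 h DAPT libraries had 0.30 ± 0.25 (SD, n = 6) with a range from -0.06 to 0.58, and DMSO libraries 1.33 ± 0.26 with a range from 0.87 to 1.52. At 6 h DAPT had 0.59 ± 0.34 with a range from 0.27 to 1.04, and DMSO 0.99 ± 0.39 with a range from 0.25 to 1.38, or 1.13 ± 0.17 (SD, n = 5) without replicate 4. DAPT 6 h replicates 2 and 3 stood at 1.00 and 1.04, above the other 4, which had 0.27 to 0.45, and within the range of DMSO. At 0 h DAPT had 0.10 ± 0.13 and DMSO 1.41 ± 0.28. The mean over the 200 genes not returned was -0.33 ± 0.20 in DAPT and 1.46 ± 0.24 in DMSO at 3 h, and -0.34 ± 0.31 and 1.46 ± 0.36 at 6 h.

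**Figure D5:**
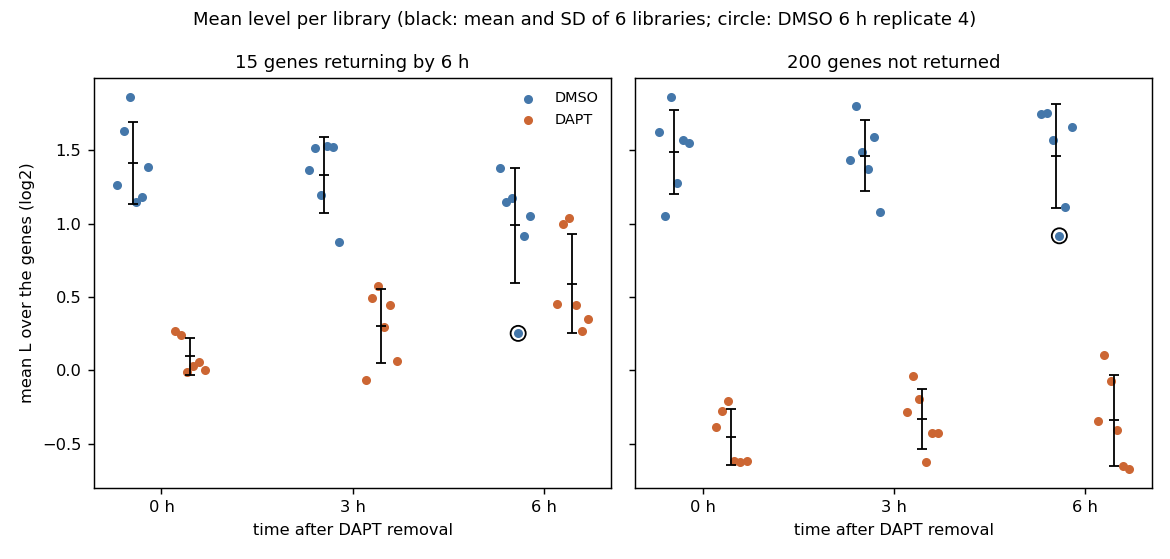
Points give the mean L (log2) over the 15 returning genes (left) and over the 200 genes not returned (right) in each library, with DMSO in blue and DAPT in orange, and black bars the mean and SD of 6 libraries. On the left DAPT and DMSO lie apart at 3 h and overlap at 6 h, where the circled DMSO replicate 4 is at 0.25; on the right they lie apart at all 3 times.

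The 15 genes did not vary as 1 block between libraries. Over the 12 libraries of 3 h, with each treatment centred on its own mean, the 105 pairs of members had a median Pearson correlation of 0.13, beside 0.00 over all pairs of genes of at least 2 CPM, and ran from -0.83 to 0.97. All points of such a correlation share their libraries and scaling. A correlation over 0.8 was seen in 4 pairs, 3.81% of them, and in 2.72% of all pairs of genes. These 4 pairs joined genes 2 and 15 (0.97), 12 and 15 (0.92), 2 and 12 (0.89), and 6 and 12 (0.87).

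In the 24 libraries of 0 h and 6 h, centred by group, the correlations of these 4 pairs were 0.94, 0.95, 0.90 and 0.82. Without DMSO 6 h replicate 4 they were 0.91, 0.93, 0.86 and 0.73. In the 24 libraries every pair among genes 2, 6, 12, 14 and 15 was over 0.8, the lowest being genes 12 and 14 (0.815). Without DMSO 6 h replicate 4 these pairs ran from 0.69 (genes 6 and 14) to 0.93 (genes 12 and 15). The share of all pairs of genes over 0.8 was not computed for these times. The rule used these same libraries to choose the genes, and the pairs were picked after seeing the data. These correlations are therefore a description without a test. At 3 h the DAPT libraries with high values in gene 15 were replicates 2, 3 and 5, with L of 2.43, 1.91 and 1.66, and those of gene 2 were the same 3, with 4.96, 4.65 and 4.73. Both genes were lowest in DAPT 3 h replicate 1, with 0.25 and 2.98. Genes 2 and 12 were also among those in which most of the narrowing by 6 h lay in DMSO with or without DMSO 6 h replicate 4, and gene 15 was among them only with it. By contrast, genes 5 and 6 had the most negative correlation, -0.83.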

How the data were processed

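Whole Hydra were profiled by strand-specific mRNA sequencing on an Illumina HiSeq2000, with 6 libraries in each of 6 groups. Per the labels, adapters, polyA and splice leaders were trimmed, and reads under quality 20, under 30 bp or with undetermined bases were dropped. Tools listed without a role are RSEM, DESeq2 1.18.1 and Bowtie2, per the submitters' processing notes. The authors deposited expected counts (estimated reads per gene, 98.9% of values not whole) for 12410 genes, with a lowest value of 0.09, so genes at 0 in a library are not analysed here.

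Each column was assigned by its letter, replicate number and time, and 0 columns were left over. CPM used column totals, and L subtracted the median of log2(CPM + 0.5) per library. CPM of single genes were scaled by TMM factors of all 36 libraries. Expected counts were rounded for edgeR 4.0.16 (R 4.3.3), which was run on the 12 libraries of 3 h with filterByExpr (11179 genes kept, 1231 removed), TMM and the quasi-likelihood F test. The 3 h libraries were fitted alone because the rule favours genes with a low spread at 0 h. SE follow from the F statistic. The script was tested on simulated data. Alternatives were a fit of all 36 libraries, DESeq2 1.42.0, limma-voom 3.58.1, other scalings, filters and pseudocounts, a replicate block, and each library left out.

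The members and lists were chosen with earlier results of these data known. Identifiers were printed for the 2 members with the smallest p at 3 h and the 2 with the largest upward change of mean L in DAPT from 0 h to 6 h. Leaving out both 3 h libraries numbered 2, counts of the changes by treatment under other scalings and without DMSO 6 h replicate 4, and the pairs compared by correlation, were chosen after seeing the data.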

Additional observations from a re-analysis of the deposited data

Results flagged for a closer look

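In 3 of 30 checks 1 library was far outside the range of its group's other 5. The checks covered the 4 genes given by identifier and the mean L of the 15 genes in 6 groups, and chance alone would give about 1.5. For TRINITY_DN3764_c0_g1 this was DMSO 6 h replicate 3, at 68.69 CPM where the rest had 40.65 to 51.13 CPM. For TRINITY_DN14675_c0_g1 it was DMSO 0 h replicate 3, at 49.16 CPM where the rest had 23.55 to 32.64 CPM, and DMSO 3 h replicate 2, at 48.1 CPM where the rest had 15.82 to 27.12 CPM. DMSO 6 h replicate 4 was not flagged by these checks. Its mean L over the 15 genes was 0.25 where the rest of its group had 0.91 to 1.38.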

How the results depend on the processing

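The number of genes that the rule finds ranged from 10 to 35 when a replicate number was left out of all groups. It was 35, 27 and 27 without numbers 1, 4 and 6, with 14, 10 and 13 of the 15 genes among them. Without numbers 2, 3 and 5 it was 18, 10 and 19, with only 9, 8 and 13 of the 15 genes among them. With 5 libraries per group the demand for separate groups at 0 h is easier to meet. The number of genes found was 12 with TMM scaling, of which 10 were shared, and 11 and 18 with pseudocounts of 1 and 0.1. The 8 members called lower at 3 h became 5 when at least 50 counts in 6 libraries were required, which left 10 members tested, and 263 genes in all were then called lower in place of 513, among fewer genes tested. Leaving out single libraries gave 5 to 10 members and 384 to 580 genes in all. DESeq2 and the fit of all 36 libraries each called 10 members, and they also called more genes in all, 611 and 594. The 4 members without overlap at 3 h became 7 without both libraries numbered 2, where separate groups are likewise easier to meet. The 8 members with most of the narrowing in DAPT became 4 with library totals, where all genes shifted, and were 8 relative to that shift; leaving out DMSO 6 h replicate 4 gave 10. The median difference at 3 h stayed between -1.17 and -0.90 in all 18 alternatives. Same-numbered libraries of 3 h had correlations of their deviations from -0.259 to 0.420, below 0 for numbers 1 and 3. For DAPT libraries 2, 5 and 6 the same-numbered DMSO library had the highest correlation, and for 1, 3 and 4 another one did. The numbers were not taken to pair the samples in the main test, and whether they mark shared batches was not tested. With a replicate block 8 members were called, among them TRINITY_DN14675_c0_g1 (adjusted p = 0.0178) and not TRINITY_DN904_c0_g1 (0.0609), and 506 genes in all were lower. The lowest expected count of a member in a library was 1.42, so differences of the low genes were read at small depth.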
